A study of Mus musculus with 79 samples.

Results

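Genes of the lung endothelium and of blood vessel growth (Vegfa, Kdr, Flt1, Car4, Apln, Aplnr, Plvap, Ednrb, Edn1 and Nos3) were followed in whole lung tissue of mice exposed to cigarette smoke. They were chosen by symbol, and each of the 10 matched 1 of the 31350 rows of the expression table. Lung RNA was measured on Affymetrix moGene2.1 arrays in 79 mice, 40 after 1 day and 39 after 5 consecutive days of exposure. The mice were C57BL/6J wild type (WT) animals and littermates carrying the Scnn1b transgene (βENaC, BENaC in the sample names), 5 to 7 weeks of age, with both sexes in every group. Scnn1b encodes the β subunit of the epithelial sodium channel and is overexpressed in airway epithelial cells of the transgenic mice, which have thickened airway mucus, chronic airway inflammation and enlarged distal airspaces. Smoke-exposed mice received mainstream and side-stream smoke of 6 reference cigarettes per day, sham-exposed mice received room air in the same chamber, and lungs were taken 4 hours after the last exposure. Genotype, exposure and duration formed 8 groups of 9 to 11 mice (11 in WT sham for 5 days, 9 in βENaC sham for 5 days and in WT smoke for 5 days, 10 in the others), or 16 groups of 4 to 6 when divided by sex.

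Capillaries of the lung wall are built by endothelial cells of more than 1 kind. Aerocytes, the wide, thin cells that cover the gas exchange surface, are known for Car4, Ednrb, Apln and a high level of Kdr, whereas general capillary cells are known for Aplnr, Plvap and Edn1. Vegfa, made largely by the alveolar epithelium, acts through the receptor Kdr (VEGFR2), and Flt1 (VEGFR1) binds the same ligand. Apelin (Apln) signals to Aplnr, endothelin 1 (Edn1) constricts vessels and is cleared from the lung through the receptor Ednrb, and Nos3 makes the nitric oxide that relaxes vessels.

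Promoter sequence was taken from RefSeq (GRCm38.p6) for 7 of the 10 genes. The 250 bases before the start of transcription are shown for Edn1, Ednrb and Apln, the genes with an entry that passed both thresholds in a comparison of exposure or genotype, from the 5′ end to the 3′ end in the direction of the gene. Edn1 is at chr13:42301226-42301475 on the plus strand, Ednrb at chr14:103843702-103843951 on the minus strand, and Apln at chrX:48034854-48035103 on the minus strand. Capitals mark matches to GCGTG, the core of the site bound by the aryl hydrocarbon receptor, on either strand. Searches were also made for ACGTG (hypoxia factor core), TGANTCA (AP-1) and AGATAA, the site of GATA factors.
Edn1: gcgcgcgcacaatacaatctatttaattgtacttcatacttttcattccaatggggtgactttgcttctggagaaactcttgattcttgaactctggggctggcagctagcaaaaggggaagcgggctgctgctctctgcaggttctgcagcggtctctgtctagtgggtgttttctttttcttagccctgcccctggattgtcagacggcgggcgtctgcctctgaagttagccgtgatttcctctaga
Ednrb: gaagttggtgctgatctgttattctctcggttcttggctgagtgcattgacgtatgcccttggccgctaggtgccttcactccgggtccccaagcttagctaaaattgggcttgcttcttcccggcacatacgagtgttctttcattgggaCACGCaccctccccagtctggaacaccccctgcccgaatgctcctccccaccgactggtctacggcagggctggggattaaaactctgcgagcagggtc
Apln: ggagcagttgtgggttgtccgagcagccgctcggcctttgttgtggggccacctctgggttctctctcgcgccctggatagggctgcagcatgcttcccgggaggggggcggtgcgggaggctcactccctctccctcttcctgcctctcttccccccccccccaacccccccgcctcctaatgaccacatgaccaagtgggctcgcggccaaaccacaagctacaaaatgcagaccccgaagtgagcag
Over the 300 bases from 250 before to 50 after the start, Ednrb held GCGTG at -99 and again at 32, counted from the start of transcription. Edn1 held no GCGTG, and it held ACGTG at 22 and AGATAA at 9. Apln held none of the 4 motifs. Among 32851 promoters of this length, 32.4% held GCGTG, 19.6% ACGTG, 7.81% TGANTCA and 11.2% AGATAA. Matches are letters in these windows and were not measured as bound sites.

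The labels were checked by 2 genes. Scnn1b lay between 11.52 and 11.88 in all βENaC mice and between 8.42 and 9.47 in all WT mice (log2 intensity), and Cyp1a1, the aryl hydrocarbon receptor target, lay between 9.96 and 11.59 in smoke-exposed mice and between 5.43 and 8.98 in sham-exposed mice. The authors had removed 1 sample as mislabelled for smoke, judged by plasma cotinine and gene expression. The Cyp1a1 separation is therefore not independent of that choice. These genes do not check the sex labels. The free-text source names of 13 WT mice exposed to smoke called them BENaC, against their titles and genotype field, and Scnn1b was at the WT level in these mice. Alveolar type 2 markers averaged between 11.41 and 11.77 per mouse and a list of 18 pan-endothelial markers between 9.10 and 9.74, on a scale where values ran from 1.98 to 13.41. Intensities of different genes are not comparable, so these ranges do not rank the lists. For 3 mice the values over all rows lay farther from their group than in the others, with an SD of 0.337 to 0.366 against a median of 0.197 over all mice. They were βENaC smoke-exposed female replicate 3 (5 days), βENaC sham-exposed male replicate 1 (1 day) and WT smoke-exposed female replicate 2 (5 days). Results were computed with and without these 3 mice.

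Differences below are fitted coefficients of log2 intensity ± SE from a linear model with exposure, genotype and sex for each duration. Changes of an exposure difference with duration, and duration among sham-exposed mice, came from a separate fit of all mice. That fit held exposure, duration and their product, and no genotype or sex term. Exposure is smoke minus sham, sex is male minus female, and genotype is βENaC minus WT, the opposite of the study's order. A gene was called when the limma p-value, adjusted over all 31350 rows, was under 0.05 and the difference was over 0.379 (1.3-fold). In whole lung RNA, fewer cells of a type and less RNA per cell cannot be told apart.

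Edn1, the vasoconstrictor ligand, was higher after smoke at both durations and higher in βENaC than in WT mice. In WT mice after 1 day, Edn1 had a lowest, median and highest level of 8.35, 8.71 and 8.96 under sham exposure, against 9.12, 9.32 and 9.62 under smoke. In βENaC mice after 1 day the levels were 8.92, 9.40 and 9.98 under sham exposure, against 9.42, 9.61 and 10.67 under smoke. Every smoke-exposed WT mouse was above every sham-exposed WT mouse, a separation that 0.255% of all rows showed in that comparison, while the βENaC groups overlapped. After 5 days the WT levels were 8.49, 8.72 and 8.92 under sham exposure, against 8.34, 9.37 and 9.78 under smoke. The βENaC levels after 5 days were 8.65, 9.13 and 9.56 under sham exposure, against 9.23, 9.73 and 10.10 under smoke. The lowest smoke-exposed WT mouse, female replicate 2, was one of the 3 mice that stood apart, and the other 8 lay above all 11 sham-exposed WT mice.

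The fitted exposure difference of Edn1 was 0.55 ± 0.09 after 1 day (adjusted p = 5.46e-05) and 0.56 ± 0.09 after 5 days (adjusted p = 6.04e-05), 1.46-fold and 1.47-fold. All 20 smoke-exposed mice of the 1-day study and 18 of 19 of the 5-day study were above the sham mean for their own genotype and sex. The genotype difference was 0.57 ± 0.09 after 1 day (adjusted p = 4.47e-05) and 0.39 ± 0.09 after 5 days (adjusted p = 0.00354). Highest in the order of group means were the βENaC smoke-exposed mice (9.78 ± 0.39 and 9.68 ± 0.35, mean ± SD, after 1 and 5 days) and lowest the WT sham-exposed mice (8.66 ± 0.25 and 8.72 ± 0.17). WT smoke (9.32 ± 0.13) and βENaC sham (9.34 ± 0.34) after 1 day lay within their spread of each other. The 5-day genotype difference was close to the 1.3-fold limit. Without any 1 of 7 mice it fell under that limit, to as little as 0.34, with an adjusted p of 0.00776 or less whichever of the 39 mice was left out. The mice were WT smoke-exposed female 2 and male 4, WT sham-exposed male 2, βENaC smoke-exposed female 4, male 1 and male 3, and βENaC sham-exposed male 2. Without the 3 mice that stood apart it was 0.36, also under the limit.

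**Figure D1:**
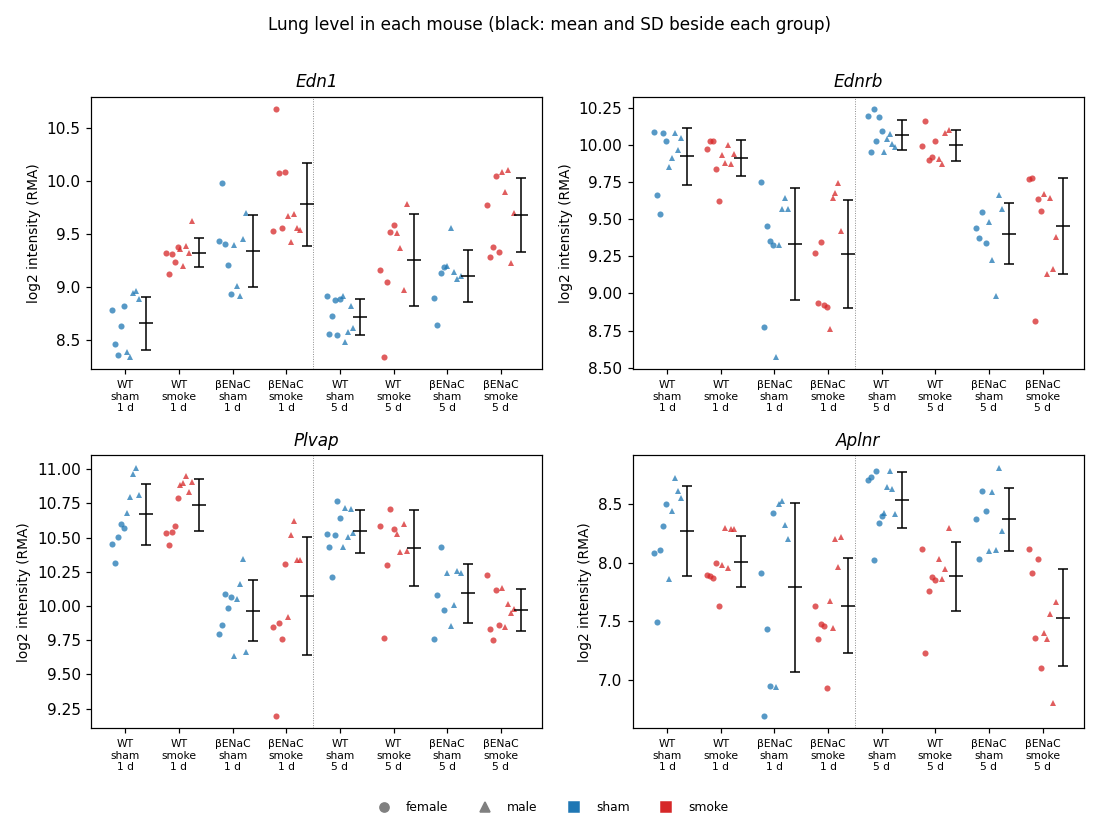
Log2 intensity of Edn1, Ednrb, Plvap and Aplnr in each mouse (circles female, triangles male; blue sham, red smoke) for WT and βENaC mice after 1 and 5 days, with the mean and SD beside each group. Edn1 was higher with smoke and in βENaC mice, Ednrb and Plvap were lower in βENaC mice, and Aplnr was lower with smoke after 5 days.

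Ednrb, the endothelin receptor of aerocytes, was lower in βENaC mice and gave no exposure call. After 1 day its lowest, median and highest levels were 9.53, 9.995 and 10.08 in WT sham, 9.62, 9.93 and 10.02 in WT smoke, 8.57, 9.40 and 9.75 in βENaC sham and 8.76, 9.31 and 9.75 in βENaC smoke. After 5 days they were 9.95, 10.03 and 10.24 in WT sham, 9.87, 9.99 and 10.16 in WT smoke, 8.98, 9.44 and 9.66 in βENaC sham and 8.82, 9.59 and 9.78 in βENaC smoke. All 19 βENaC mice of the 5-day study were below all 20 WT mice, a separation found in 0.0702% of all rows, and after 1 day the genotypes overlapped. The genotype difference was -0.62 ± 0.08 after 1 day (adjusted p = 3.15e-06) and -0.60 ± 0.06 after 5 days (adjusted p = 1.06e-08), 0.652-fold and 0.661-fold. Spread was wider among βENaC mice, with an SD of 0.36 after 1 day against 0.16 in WT mice. The exposure differences were -0.04 ± 0.08 and -0.01 ± 0.06 after 1 and 5 days.

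Of the 6 measured genes of the endothelin pathway, Ece1, the enzyme that releases active endothelin, rose with smoke after 1 day (0.14) and was lower in βENaC mice at both durations (-0.24 and -0.20, past the adjusted p, under 1.3-fold). Ednra, the contractile receptor of smooth muscle, was lower in βENaC mice after 5 days (-0.13) and lower with smoke after 5 days (-0.16). Edn2 and Ece2 passed no test of exposure, genotype or sex at either duration.

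Aplnr, the apelin receptor of general capillary cells, was lower after 5 days of smoke. In WT mice after 5 days its lowest, median and highest levels were 8.02, 8.63 and 8.78 under sham exposure, against 7.22, 7.88 and 8.29 under smoke. In βENaC mice they were 8.03, 8.37 and 8.81 under sham exposure, against 6.80, 7.48 and 8.12 under smoke. All 19 smoke-exposed mice were below the sham mean for their own genotype and sex, although the groups overlapped at their edges in both genotypes. The difference was -0.74 ± 0.10 (adjusted p = 1.24e-06), 0.597-fold, and -0.69 without the 3 mice that stood apart.

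After 1 day Aplnr had levels of 7.49, 8.38 and 8.72 in WT sham, 7.63, 7.97 and 8.29 in WT smoke, 6.69, 8.06 and 8.52 in βENaC sham and 6.93, 7.55 and 8.22 in βENaC smoke. These groups overlapped widely, and the exposure difference of -0.21 ± 0.12 gave an adjusted p of 0.345. In the separate fit without genotype and sex, the 5-day difference minus the 1-day difference was -0.56 ± 0.19 (adjusted p = 0.170). A change with duration thus did not pass the test over all rows. Sham-exposed mice of the 5-day study were 0.43 ± 0.13 above those of the 1-day study (adjusted p = 0.168). By genotype, Aplnr was -0.43 ± 0.12 lower in βENaC mice after 1 day (adjusted p = 0.0280), and the difference was -0.26 ± 0.10 after 5 days (adjusted p = 0.0934). The 1-day call was lost without βENaC sham-exposed female replicate 2 or male replicate 1 of the 1-day study. It stood at -0.37 without the latter, a value under 1.3-fold with an adjusted p that stayed under 0.05, and this mouse was the one of the 3 that stood apart in the 1-day study (adjusted p = 0.0430 without it). The 5-day difference was -0.29 without WT smoke-exposed female replicate 2, with an adjusted p of 0.0409, still under 1.3-fold.

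Apln, the ligand of Aplnr, differed by genotype and rose with smoke after 1 day. After 1 day its lowest, median and highest levels were 6.93, 7.41 and 7.83 in WT sham, 7.40, 7.77 and 8.23 in WT smoke, 6.10, 7.11 and 7.88 in βENaC sham and 6.67, 7.17 and 7.87 in βENaC smoke. The groups overlapped. The genotype difference was -0.45 ± 0.09 (adjusted p = 0.000718), with 19 of 20 βENaC mice below the mean of their WT counterparts. The exposure difference was 0.29 ± 0.09 (adjusted p = 0.0264), under 1.3-fold. In 1 fit over all mice of both durations the 1-day genotype difference kept its size, and its adjusted p was 0.0659.

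After 5 days the Apln levels were 6.67, 7.42 and 8.09 in WT sham, 3.88, 7.49 and 7.89 in WT smoke, 6.45, 7.02 and 7.82 in βENaC sham and 6.38, 7.04 and 7.42 in βENaC smoke. The value of 3.88 came from WT smoke-exposed female replicate 2, which stood apart over all rows, and it lay far below the other mice. With it, the genotype difference was -0.26 ± 0.20 (adjusted p = 0.489). Without that mouse it was -0.44 (adjusted p = 0.00243), past both thresholds, and without the 3 mice that stood apart -0.46 (adjusted p = 0.00169). The exposure difference after 5 days was -0.19 ± 0.20 with this mouse and 0.01 without it.

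Plvap, a component of the diaphragms of endothelial fenestrae and caveolae, showed the largest fitted genotype difference of the 10 genes after 1 day. Its lowest, median and highest levels after 1 day were 10.31, 10.64 and 11.01 in WT sham, 10.45, 10.81 and 10.95 in WT smoke, 9.63, 10.02 and 10.34 in βENaC sham and 9.20, 10.11 and 10.62 in βENaC smoke. After 5 days they were 10.21, 10.53 and 10.77 in WT sham, 9.76, 10.52 and 10.71 in WT smoke, 9.76, 10.08 and 10.43 in βENaC sham and 9.76, 9.96 and 10.23 in βENaC smoke. Sham-exposed WT and βENaC mice touched only at their edges after 1 day, and every βENaC mouse of both studies was below the mean of WT mice of its exposure and sex. The difference was -0.68 ± 0.07 after 1 day (adjusted p = 8.24e-09) and -0.46 ± 0.06 after 5 days (adjusted p = 1.88e-06). The change of this difference with duration, 0.21 ± 0.10, did not pass over all rows (adjusted p = 0.853). Exposure differences were 0.09 ± 0.07 and -0.12 ± 0.06, with adjusted p-values of 0.534 and 0.323.

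**Figure D2:**
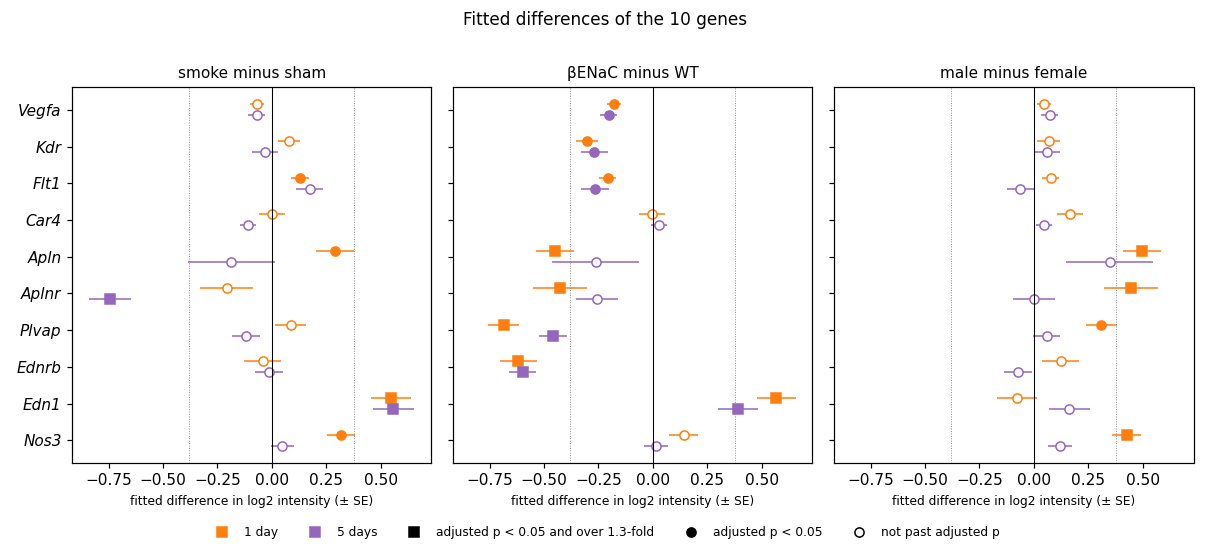
Fitted differences (log2 intensity, ± SE) of the 10 genes for smoke minus sham, βENaC minus WT and male minus female after 1 day (orange) and 5 days (purple). Squares passed the adjusted p and the 1.3-fold limit (dotted lines), filled circles the adjusted p alone, and open circles neither. Edn1 lies to the right for exposure and genotype, Ednrb and Plvap lie to the left for genotype at both durations.

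Among the VEGF genes, Kdr, Flt1 and Vegfa were each lower in βENaC mice at both durations, and each by less than 1.3-fold. Kdr, the main signalling receptor, had a lowest, median and highest level of 10.58, 10.68 and 10.81 in WT sham and 9.71, 10.41 and 10.60 in βENaC sham after 1 day. After 5 days these were 10.60, 10.72 and 10.78 against 10.20, 10.40 and 10.63. Smoke-exposed mice had medians of 10.76 and 10.48 (WT and βENaC) after 1 day and of 10.70 and 10.55 after 5 days. The difference was -0.30 ± 0.05 after 1 day (adjusted p = 0.000121) and -0.27 ± 0.06 after 5 days (adjusted p = 0.00225), with all 20 and 16 of 19 βENaC mice below the mean of their WT counterparts.

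Flt1, the decoy receptor, was -0.21 ± 0.04 lower after 1 day (adjusted p = 0.000807) and -0.27 ± 0.06 after 5 days (adjusted p = 0.00327), in all 20 and all 19 βENaC mice. Its medians were 9.74 and 9.57 in WT and βENaC sham mice after 1 day, and 9.73 and 9.48 after 5 days. Flt1 also rose with smoke after 1 day, by 0.13 ± 0.04 (adjusted p = 0.0372), in 16 of 20 mice. That adjusted p was above 0.05 when any of 16 of the 40 mice was left out, reaching 0.0639, and was 0.0546 without the 3 mice that stood apart. After 5 days the exposure difference was 0.18 ± 0.06 (adjusted p = 0.0864), and the highest value, 10.65 in WT smoke-exposed female replicate 2, was above all others. Without that mouse the 5-day difference was 0.13 (adjusted p = 0.121), and without βENaC smoke-exposed female replicate 3 it was 0.21 (adjusted p = 0.0102). Vegfa, the ligand, was -0.18 ± 0.03 (adjusted p = 0.000301) and -0.20 ± 0.04 (adjusted p = 0.000325) lower in βENaC mice. After 5 days of sham exposure its 9 βENaC mice, at 10.95 to 11.24, lay below all 11 WT mice, at 11.25 to 11.54, a separation found in 0.931% of all rows. Its exposure difference was -0.07 ± 0.03 after 1 day and -0.07 ± 0.04 after 5 days, neither past the test.

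The VEGF genes as a list differed in both directions. Of 10 measured ligands and receptors, Vegfa, Kdr and Flt1 included, 3 were higher and 3 lower in βENaC mice by the adjusted p after 1 day, and 2 higher and 4 lower after 5 days. Over all rows, 3.58% were higher and 2.29% lower by that test after 1 day, and 4.85% and 5.33% after 5 days. Pgf, the placental growth factor that binds Flt1, was higher by 0.45 after 1 day, a call, and by 0.19 after 5 days. Nrp2, a co-receptor, was higher by 0.21 and 0.23. Flt4, the lymphatic VEGF receptor, was 0.26 higher with smoke after 1 day and was lower by -0.26 in βENaC mice after 5 days. Vegfc and Nrp1 passed no test in either genotype or exposure comparison.

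Car4, the carbonic anhydrase on the surface of aerocytes, passed no test. Its medians ranged from 9.39 to 9.63 over the 8 groups, and its genotype differences were -0.00 ± 0.06 after 1 day and 0.03 ± 0.04 after 5 days. Its exposure difference after 5 days was -0.11 ± 0.04 (adjusted p = 0.0622). Nos3, the endothelial nitric oxide synthase, gave no genotype call (0.14 ± 0.07 and 0.01 ± 0.05). It rose with smoke after 1 day by 0.32 ± 0.07 (adjusted p = 0.00103), 1.25-fold and so under the limit, with 17 of 20 smoke-exposed mice above the sham mean for their genotype and sex. The group means of WT females were 6.42 with sham and 6.41 with smoke, against 6.64 and 7.11 in WT males, 6.45 and 6.73 in βENaC females and 6.72 and 7.25 in βENaC males. Its lowest, median and highest levels after 1 day were 6.02, 6.57 and 6.85 in WT sham and 6.08, 6.81 and 7.43 in WT smoke, and 6.32, 6.53 and 6.94 in βENaC sham and 6.40, 7.01 and 7.45 in βENaC smoke. After 5 days its group medians lay between 6.536 and 6.597, and the exposure difference was 0.05 ± 0.05. The change of the exposure difference with duration, -0.27 ± 0.11, did not pass over all rows (adjusted p = 0.302).

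**Figure D3:**
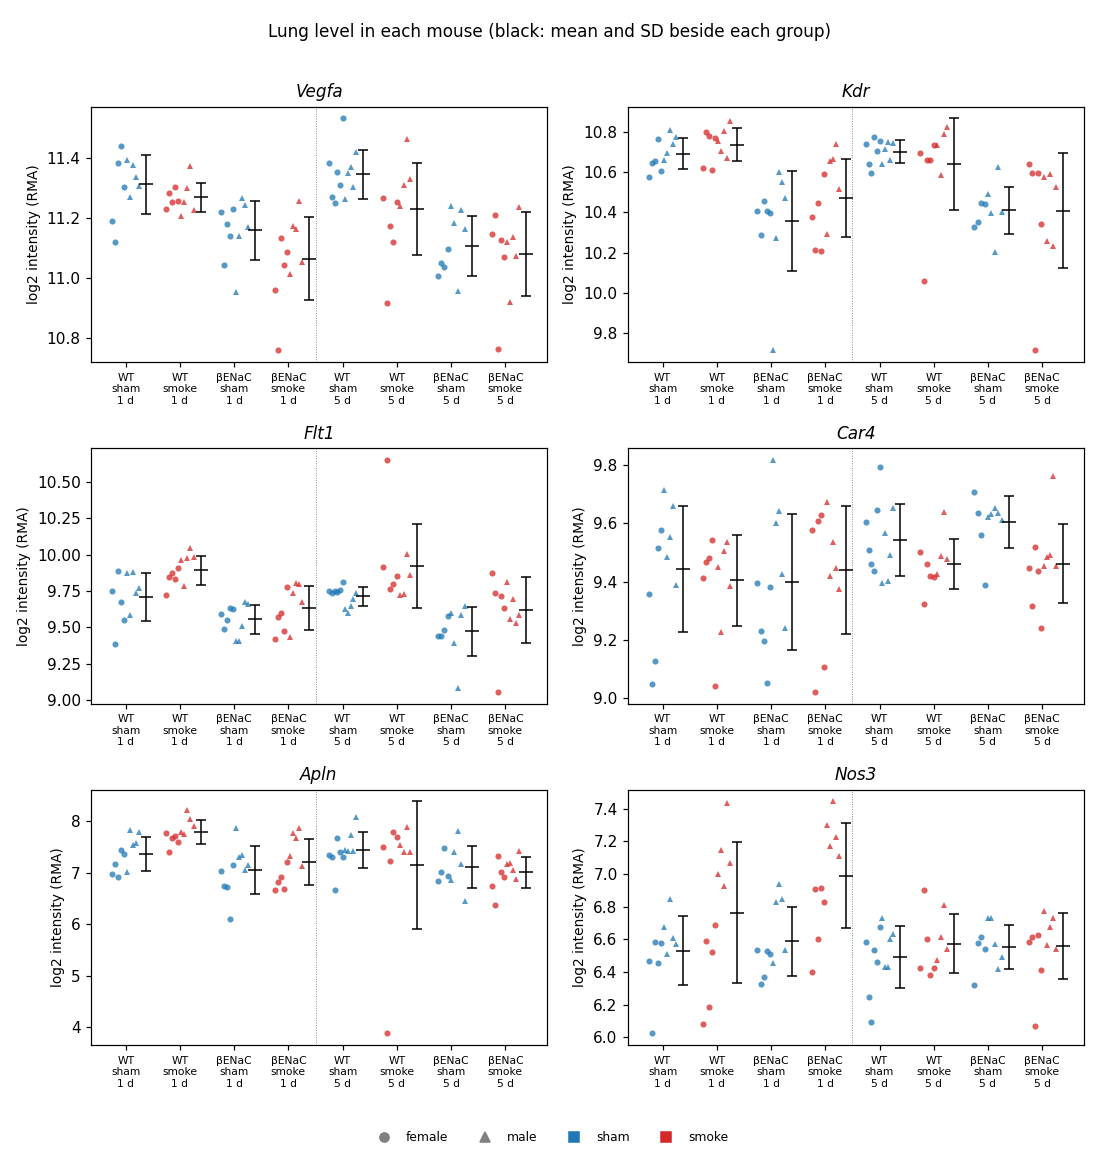
Log2 intensity of Vegfa, Kdr, Flt1, Car4, Apln and Nos3 in each mouse, drawn as in the plot of Edn1, with the mean and SD beside each group. The single Apln value of 3.88 and the single Flt1 value of 10.65 belong to the same WT smoke-exposed female of the 5-day study.

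In the nitric oxide pathway, Nos2, the inducible synthase, was lower with smoke. It fell by 0.58 after 1 day, a call, and by 0.33 after 5 days, and it was higher in βENaC mice by 0.51 and 0.57. Pde5a, the phosphodiesterase that ends the signal of nitric oxide, was lower with smoke at both durations (-0.23 and -0.31) and in βENaC mice (-0.17 and -0.16), all under 1.3-fold. Cav1, the caveolar protein that holds Nos3 inactive, rose with smoke after 1 day (0.15) and was lower in βENaC mice (-0.19 and -0.22).

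Counted over the 10 genes, exposure called 1 after 1 day (Edn1, where 1.07% of all rows were called) and 2 after 5 days (Edn1 and Aplnr, 1.15%). Genotype called 5 after 1 day (1.54% of all rows). Of these Plvap, Ednrb, Apln and Aplnr were lower, where 0.418% of all rows were called lower, and Edn1 was higher, where 1.13% were called higher. After 5 days genotype called 3 (2.52%), with Ednrb and Plvap lower (0.651%) and Edn1 higher (1.87%). By the adjusted p alone, 4 genes were higher with smoke after 1 day and none lower, against 5.03% and 4.43% of all rows (9.45% in either direction). After 5 days 1 was higher and 1 lower, against 3.17% and 3.37% (6.53% in either direction). For genotype, 1 was higher and 7 lower after 1 day, against 3.58% and 2.29% (5.87%), and 1 was higher and 5 lower after 5 days, against 4.85% and 5.33% (10.2%). Over all mice of a duration, smoke and sham overlapped for all 10 genes after 1 day and after 5 days, where 0.0287% of all rows did not overlap at each duration. The genotypes overlapped for all 10 after 1 day (0.0478% of rows did not) and for all but Ednrb after 5 days. The median genotype difference of the 10 genes was -0.26 after 1 day and -0.26 after 5 days, against 0.00 and -0.01 over all rows. Medians of the exposure differences were 0.08 and -0.05, against 0.01 and -0.00.

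Males and females differed in 3 of the 10 genes after 1 day (0.836% of all rows were called, and 9.89% passed the adjusted p) and in none after 5 days (0.198%; at unadjusted p under 0.05, 1 of the 10, Nos3, passed). Apln was higher in males by 0.50 ± 0.09 (adjusted p = 0.000143), Aplnr by 0.45 ± 0.12 (adjusted p = 0.0136) and Nos3 by 0.43 ± 0.07 (adjusted p = 2.58e-05). Nos3 in all 20 males was above the mean of the females of their genotype and exposure, with a lowest, median and highest level of 6.46, 6.93 and 7.45 in males and 6.02, 6.53 and 6.91 in females. Apln was above it in 19 of 20 males and Aplnr in 18 of 20. Plvap was higher by 0.31 ± 0.07 (adjusted p = 0.00299), under 1.3-fold. After 5 days the same differences were 0.35 ± 0.20 for Apln (0.19 without WT smoke-exposed female replicate 2), -0.00 ± 0.10 for Aplnr, 0.12 ± 0.05 for Nos3 and 0.06 ± 0.06 for Plvap. The change of a sex difference with duration was not tested. Of 18 pan-endothelial markers, 8 were higher in males after 1 day by the adjusted p, with Sox18, a transcription factor of vessel growth, called at 0.60, and none passed after 5 days. Of 7 alveolar type 2 markers, 4 were also higher in males after 1 day, and the part of other cells in the sex differences was not tested.

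No gene of the 10 passed over all rows for an effect of exposure that changed with duration, genotype or sex, for an effect of genotype that changed with duration, or for duration among sham-exposed mice. Over all rows, the exposure by duration term passed in 0.612% and the duration term among sham-exposed mice, by the adjusted p, in 0.0351%. Exposure by genotype and exposure by sex each passed in 0.00638% of rows after 1 day and in no row after 5 days, and genotype by duration passed in no row. At unadjusted p under 0.05, exposure by duration held Aplnr, Apln (-0.51 ± 0.25, and -0.33 with an adjusted p of 0.532 without WT smoke-exposed female replicate 2 of 5 days) and Nos3, genotype by duration held Plvap, exposure by sex after 1 day held Nos3 (0.37 ± 0.12, adjusted p = 0.592), and duration among sham-exposed mice held Aplnr and Car4 (0.15 ± 0.05). Exposure by genotype at both durations and exposure by sex after 5 days held none. For Edn1, exposure by genotype was -0.23 ± 0.18 after 1 day and 0.04 ± 0.19 after 5 days.

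Some endothelial markers outside the 10 genes were lower in βENaC mice. Of the 18 pan-endothelial markers, 8 were lower and 1 higher after 1 day and 10 lower and 1 higher after 5 days by the adjusted p, none past 1.3-fold, with a median difference of -0.14 and -0.15. The shares of all rows were 2.29% lower and 3.58% higher after 1 day, and 5.33% and 4.85% after 5 days. Ramp2, the partner of the adrenomedullin receptor, was lower by -0.38 and -0.35, Eng, a TGF-β co-receptor, by -0.27 and -0.25, and Emcn, a surface sialomucin, was higher by 0.28 and 0.20. Pecam1 gave -0.08 at both durations, neither past the test. Mean levels of the list per mouse ran from 9.29 to 9.68 in WT sham and from 9.15 to 9.69 in βENaC sham mice after 1 day, and from 9.50 to 9.70 and from 9.33 to 9.60 after 5 days.

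Markers of both capillary cell types were counted by genotype. Among all rows, 2.29% and 5.33% were lower by the adjusted p after 1 and 5 days, and 3.58% and 4.85% were higher. Called lower were 0.418% and 0.651% of all rows. Of 10 aerocyte markers, which include Car4, Ednrb, Kdr and Apln, 7 were lower by the adjusted p at each duration and none higher, and 4 and 3 were called. Outside the 10 genes, Fibin was lower by -0.68 and -0.72 and Chst1, a sulfotransferase, by -0.43 and -0.38. Kitl, the ligand of Kit, was lower by -0.23 at both durations. Of 10 general capillary markers, which include Aplnr, Plvap and Edn1, 7 were lower and 1 higher after 1 day and 5 lower and 1 higher after 5 days. Gpihbp1, which carries lipoprotein lipase to the capillary lumen, was lower by -0.20 and -0.36 and Cd93 by -0.29 and -0.15. With smoke, Lpl, the lipase itself, rose by 0.33 and 0.36 and Kit rose by 0.44, a call, and 0.19. Other genes of this list differed with smoke in both directions. Cd93 and Ptprb rose after 1 day (0.18 each), Edn1 rose at both durations, and Aplnr was lower after 5 days (-0.74, a call). Plvap passed no exposure test, and Gpihbp1, Tek and Sema3c did not pass after 1 day.

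**Figure D4:**
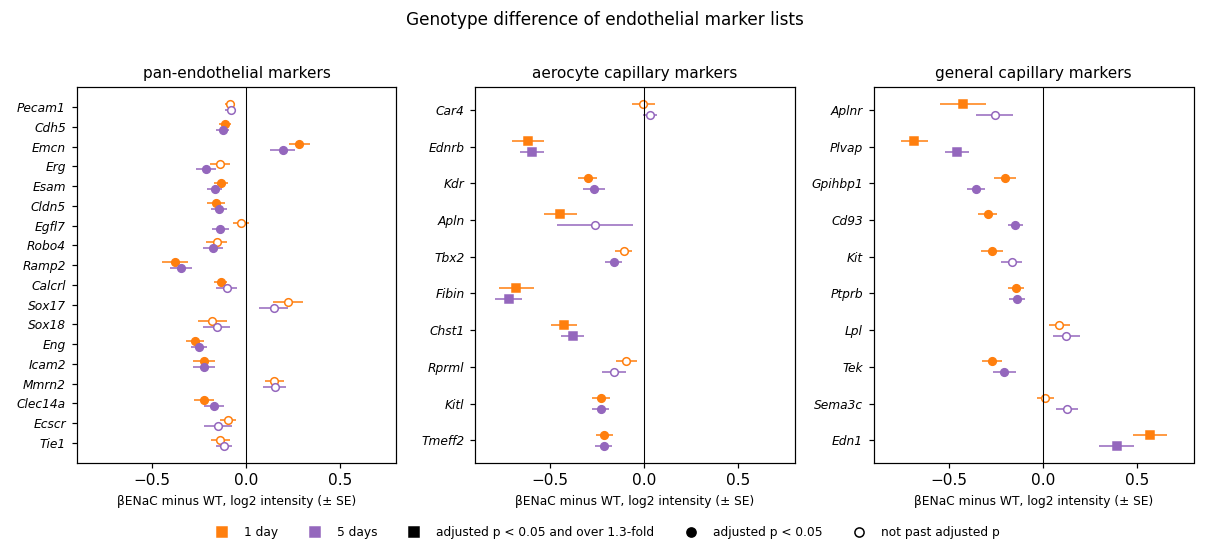
Fitted genotype difference (βENaC minus WT, log2 intensity, ± SE) of each gene in lists of pan-endothelial, aerocyte and general capillary markers after 1 day (orange) and 5 days (purple), with symbols as in the plot of the 10 genes. Most points lie to the left of 0, and Edn1, Emcn, Lpl, Mmrn2, Sema3c and Sox17 lie to the right at both durations.

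Genes of sprouting tip cells form a list that holds Apln. Of 9 measured, 7 were lower in βENaC mice after 1 day and 4 after 5 days by the adjusted p, none higher. All rows gave 2.29% and 5.33% lower, and 3.58% and 4.85% higher. Igfbp3, a binding protein of insulin-like growth factors, was lower by -1.20 and -1.01 and Esm1, an endothelial proteoglycan induced by VEGF, by -0.51 and -0.90. Dll4, the Notch ligand of tip cells, was lower by -0.29 and -0.32. Pdgfb, which recruits pericytes, fell with 5 days of smoke by 0.42. Of 5 angiopoietin and Tie genes, 3 and 2 were lower, with Tek, the angiopoietin receptor, at -0.27 and -0.21. Of 10 Notch and ephrin genes, 1 was higher and 2 lower after 1 day and 5 were lower after 5 days.

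Other vessel types gave mixed results. Cxcl12, a chemokine of arterial endothelium, was higher in βENaC mice (0.61 and 0.56) and fell with smoke (by 0.39 and 0.35). Dll4, on the same arterial list, was lower in βENaC mice at both durations. After 1 day of smoke, Efnb2 of that list was also lower (-0.20, past the adjusted p, under 1.3-fold). Gja5, Gja4, Hey1, Dll4, Bmx, Dkk2 and Sox17 did not pass in that comparison. Slc6a2, the noradrenaline transporter listed with venous markers, was lower in βENaC mice (-0.68 and -0.48). Cxcl12 and Slc6a2 are single genes of their lists and do not stand for arteries or veins. Lyve1, a receptor of lymphatic vessels that some macrophages also carry, was lower in βENaC mice (-0.53 and -0.55) and rose with smoke (0.52 and 0.61). Prox1, the regulator of lymphatic identity, was higher in βENaC mice (0.50 and 0.25). After 1 day of smoke, Flt4 of the lymphatic list also rose (0.26, past the adjusted p, under 1.3-fold). Prox1, Mmrn1 and Reln did not pass in that comparison. Lyve1 is a single gene of that list and does not stand for lymphatic vessels. Of 9 pericyte markers, 1 was called by genotype, Rgs5 at 0.73 after 1 day, where 1.54% of all rows were called after 1 day and 2.52% after 5 days. Of 7 adhesion molecules, 1 was lower in βENaC mice at each duration, Icam2 at -0.22, where 2.29% and 5.33% of all rows were lower by the adjusted p. Cnn1, a smooth muscle gene, was lower by -0.44 and -0.61, and Acta2 stood at 0.03 and 0.01.

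Shear responsive genes and hypoxia genes, both lists that hold Edn1, did not all differ as Edn1 did. Klf2, the endothelial factor induced by flow, gave no call for exposure (-0.22 and -0.14) or genotype (-0.10 and -0.16). After 1 day of smoke, 5.03% of all rows were higher and 4.43% lower by the adjusted p. Nos3 of the shear list rose in that comparison, as Edn1 did (0.32, past the adjusted p, under 1.3-fold). Klf4, Thbd, Thbs1 and Piezo1 did not pass there. By genotype, 3.58% and 4.85% of all rows were higher by the adjusted p after 1 and 5 days, and 2.29% and 5.33% lower. Of 12 hypoxia targets, 3 were higher and 1 lower in βENaC mice after 1 day and 4 higher and 1 lower after 5 days, the lower gene being Vegfa. Ankrd37 was the largest, at 1.18 and 0.70. Hif1a was higher by 0.20 and 0.18 and Epas1, the factor prominent in endothelium, was lower by -0.14 at both durations. Adm, adrenomedullin, gave 0.32 and 0.24 and passed neither test. With 1 day of smoke, Bnip3 of the hypoxia targets rose as Edn1 did (0.24, past the adjusted p, under 1.3-fold). The other hypoxia targets did not pass in that comparison.

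Markers of other cells moved with the same comparisons. Genotype called 1.13% of all rows higher after 1 day and 1.87% after 5 days. By genotype, 3 of 5 alveolar macrophage markers were called higher at each duration (Marco 0.86 and 0.84, Chil3 0.70 and 0.79, Mrc1 0.51 and 0.63). The mean of that list ran from 8.88 to 9.59 in WT sham and from 9.10 to 10.46 in βENaC sham mice after 1 day, and from 9.20 to 9.58 and from 9.66 to 10.61 after 5 days. By the adjusted p alone, 2.29% of all rows were lower and 3.58% higher by genotype after 1 day, and 5.33% and 4.85% after 5 days. Of 7 alveolar type 1 markers, 2 were lower after 1 day and 5 after 5 days, with Hopx at -0.23 and -0.29. All 3 club cell markers were lower at each duration, with Cyp2f2 at -0.29 and -0.39. Of 5 leukocyte markers, 1 was higher in βENaC mice after 1 day and 2 after 5 days (Itgb2 0.41 and 0.66). With smoke, 4.43% and 3.37% of all rows were lower by the adjusted p after 1 and 5 days, and 5.03% and 3.17% higher. By exposure, 3 of 5 leukocyte markers were lower after 1 day and 2 after 5 days (Ptprc -0.33 and -0.28). Their mean ran from 8.71 to 9.34 in WT sham and from 8.39 to 8.76 in WT smoke mice after 1 day. Of 3 red cell markers, 1 was higher with smoke after 1 day and 3 after 5 days, with Slc4a1 at 1.89 after 5 days. No heart muscle marker of 4 passed for exposure or genotype. The part of these cells in the results of the 10 genes was not tested.

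Within groups, mice with more of 1 gene tended to have more of several others. Deviations of each gene from the mean of its group (of 16) were correlated over the 79 mice for all 45 pairs. By permutation within groups, 14 pairs passed an adjusted p of 0.05 over the 45, of which 13 were positive, and 15 passed by rank correlation, 13 of them by both. Vegfa and Kdr had the highest r, 0.75 (rho = 0.67, permutation p = 1e-05 for both, the smallest that 100000 permutations give, adjusted p = 0.000225 and 0.00015). The value was 0.71 without the 2 mice farthest from the median of Vegfa and 0.65 without the 3 mice that stood apart. Kdr and Ednrb gave r = 0.67 and rho = 0.58. Their r was 0.52 without the 2 farthest mice, which depend on the pair, and 0.63 without the 3 mice that stood apart. Kdr and Plvap gave r = 0.62 and rho = 0.59, and 0.64 and 0.57. Flt1 and Ednrb gave r = 0.53 and rho = 0.52, and 0.49 and 0.48. All 14 kept their sign when either set of mice was left out.

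The single negative pair, Flt1 and Apln, had r = -0.57 (permutation p = 0.00631, adjusted p = 0.0258) and rho = -0.26 (adjusted p = 0.111). It was -0.33 without the 2 mice farthest from the median and -0.31 without the 3 mice that stood apart, and both extreme values came from WT smoke-exposed female replicate 2 of the 5-day study. No pair that held Edn1 or Car4 passed by Pearson correlation. All arrays were run on 1 plate per the labels, so no batch could be separated, and the genes share each mouse's array.

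**Figure D5:**
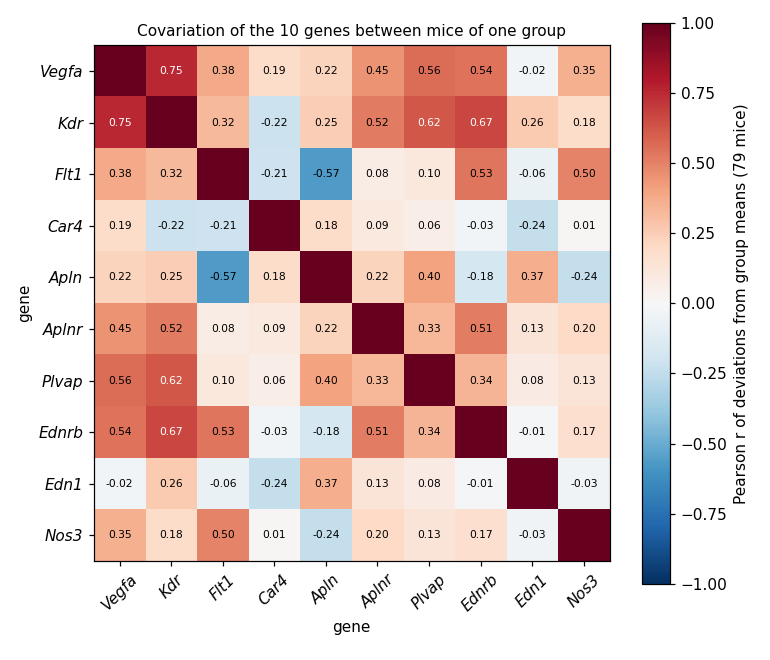
Pearson r between the 10 genes of deviations from the mean of the 16 groups, over 79 mice. The block of Vegfa, Kdr, Plvap and Ednrb is positive throughout, with Vegfa and Kdr highest at 0.75, and Flt1 with Apln is lowest at -0.57.

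The genes most like each of the 10 by the same measure over 79 mice, given as r and as a description, were Dipk2a for Kdr (0.87), Fmo1 for Ednrb (0.88), Fnbp1l for Flt1 (0.82), Smurf2 for Vegfa (0.77) and Eng for Plvap (0.77). Abi3bp was nearest to Aplnr (0.76), St8sia4 to Apln (0.74), Ntrk2 to Edn1 (0.65), Fgd5 to Nos3 (0.64) and Ank3 to Car4 (0.61). For Apln and St8sia4 the rank correlation was 0.37.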

How the data were processed

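Per the methods, whole lung RNA was hybridised to Affymetrix moGene2.1 arrays, checked in Affymetrix Expression Console 1.4 and normalised in Partek 6.6 by RMA with quantile normalisation, and 1 mislabelled array was removed by the authors. The deposited values are log2 intensities per transcript, which say nothing of levels between genes, and fold changes on arrays can be compressed. The number of arrays limits the precision. Symbols came from RefSeq (21053 rows) or tables of the study (99), and 10198 rows stayed unnamed and in the tests. For each duration limma 3.58.1 (R 4.3.3) fitted exposure, genotype and sex, with Benjamini-Hochberg adjustment over all 31350 rows. Interactions and duration were tested in fits with product terms. The fit for exposure by duration, and for duration in sham-exposed mice, held no genotype or sex term. Correlations used 100000 permutations within groups, and figures used matplotlib 3.10.9. The fits were tested on simulated data. The members, lists and alternatives were chosen with earlier results of these data known. The 10 genes, the genes of the lists and the 3 genes most correlated with each member could be named. Other fold thresholds, normalisations, filters, models and samples were tried. Mice of 1 group were labelled as separate animals. The labels do not say what replicate numbers stand for, and mice were not paired by them.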

Additional observations from a re-analysis of the deposited data

Results flagged for a closer look

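For each of the 10 genes, each of the 16 groups of 4 to 6 mice was searched for a mouse far from the others of its group, which chance gives in about 1 in 20 groups. It was found in 12 of 160 groups (7.5%). Of these, 3 came from WT smoke-exposed female replicate 2 of the 5-day study, with Apln at 3.88, Flt1 at 10.65 and Kdr at 10.06. In the other mice that stood apart over all rows, Ednrb was 8.82 in βENaC smoke-exposed female replicate 3 (5 days) and Aplnr was 6.93 in βENaC sham-exposed male replicate 1 (1 day). In βENaC mice of the 5-day study, Vegfa was 10.95 in sham-exposed male replicate 3, Edn1 was 9.56 in sham-exposed male replicate 2 and Car4 was 9.76 in smoke-exposed male replicate 4. In WT mice, Flt1 was 9.81 in sham-exposed female replicate 6 and Apln was 6.67 in sham-exposed female replicate 3 (5 days), Car4 was 9.04 in smoke-exposed female replicate 5 and Nos3 was 6.02 in sham-exposed female replicate 2 (1 day).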

How the results depend on the processing

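No difference of the 10 genes that passed the adjusted p changed direction under any alternative run. Without a fold threshold the genes called were 4 for exposure after 1 day, 8 for genotype after 1 day and 6 for genotype after 5 days. At 1.5-fold they were 0 for exposure after 1 day, 2 for genotype after 1 day (Ednrb and Plvap), 0 for sex after 1 day, 1 for exposure after 5 days (Aplnr) and 1 for genotype after 5 days (Ednrb). For the change of the exposure effect with duration, adjustment within the genes called for exposure after 1 day, 5 days or both called 1 gene, Aplnr (adjusted p = 0.0214), but that list was chosen on these samples. Leaving out each mouse in turn gave 1 to 1 calls for exposure after 1 day, 2 to 2 after 5 days, 4 to 5 for genotype after 1 day, 2 to 3 after 5 days, 3 to 3 for sex after 1 day and 0 to 0 for the others.

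Without the 3 mice that stood apart, an alternative chosen after seeing the data, the calls were 1 and 2 for exposure, 4 and 3 for genotype and 3 and 0 for sex after 1 and 5 days. The genotype calls were not the same genes. Aplnr was lost after 1 day, and after 5 days Edn1 was lost and Apln was gained. Median centring, quantile and cyclic loess normalisation, omission of the 30% lowest rows, 1 row per symbol, the ordinary linear model and a trended, robust prior each called the same genes as reported for exposure, genotype and sex. In 1 fit over all mice Apln was not called for genotype after 1 day (-0.45, adjusted p = 0.0659), and the other calls for exposure, genotype and sex were the same. With array weights, Aplnr for genotype after 1 day (-0.38) and Edn1 for genotype after 5 days (0.37) fell under 1.3-fold, and Apln for genotype after 5 days was called (-0.42, adjusted p = 0.0495). Over 26 differences that passed in a comparison or were named for it, 309 of 337 combinations with an alternative kept their side of the threshold, 15 lost it and 13 gained it. By rank correlation 15 pairs of genes passed in place of 14.

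The labels do not say what replicate numbers stand for, so mice were not paired by them. Deviations from the group means correlated over 0.1 in 24 of 140 pairs of mice with the same number after 1 day and in 18 of 126 after 5 days. The mean correlation after 1 day was 0.023 with the same number and -0.0055 with another, and 21 of 40 mice correlated best with a mouse of their own number. After 5 days these means were -3.7e-05 and 0.00018, and 7 of 39 mice correlated best with their own number. The 1-day values are a hint from the data and not from the design. A share given by chance was not computed. The fit with the replicate number as a block gave 1 and 2 calls for exposure, 5 and 3 for genotype and 3 and 0 for sex, and it called the same genes as the fit without the block. Each gene had 1 row, and the alternative of another row was not run. The number of arrays limits the precision.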
